A study of Fundulus heteroclitus with 8 samples.

Results

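Ion pumps, channels and solute carriers move ions, sugars, amino acids and nucleotides across the membranes of the cell. They were followed here in the testis of adult male mummichog (Fundulus heteroclitus, an estuarine killifish). The members were taken by product name alone. A feature of the array (a probe, printed as 2 spots) belonged to the set if its name held solute carrier, sodium/potassium-transporting, calcium-transporting, vacuolar ATP synthase, vacuolar proton, channel, aquaporin, cotransporter, exchanger or amino acid transporter. Band 3, mitochondrial carrier and ribosomal names were left out. The set held 94 of 7157 probes, under 70 product labels, with 22 probes for pumps, 33 for channels and 39 for carriers. Of the 94, 7 probes were designed on mummichog sequence records. The others lie on assembled sequences named after known proteins, many of them of other species.

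There were 2 groups of 4 adult males. The DHT50 males took up 5α-dihydrotestosterone (DHT) from their water, dosed at 50 µg/L over 21 days, and the control males received none. DHT is an androgen that cannot be aromatised to an estrogen. Males at 5 µg/L are not analysed here. Each testis RNA was labelled with Cy3 and hybridised to its own Agilent array, and all 8 arrays lay on 1 slide. The labels speak of biological replicates and of individuals, give no genotype or strain, and do not say whether tanks were shared. With whole testis RNA, fewer cells of a type and less RNA per cell cannot be told apart.

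Pumps spend ATP to move ions uphill. The sodium/potassium ATPase sets up the sodium and potassium gradients that many carriers use, and the vacuolar proton ATPase (V-ATPase) acidifies lysosomes, secretory vesicles and, in mammalian sperm, the acrosome. Channels let ions or water pass down a gradient, and carriers bind a solute and hand it across. In the testis of mammals, chloride, bicarbonate and water transport make the fluid that carries the sperm, and killifish are a classical model of salt transport in the gill.

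No transport transcript passed the test between DHT50 and control males. Linear models with empirical Bayes moderation (limma) called 0 of the 80 members tested at an adjusted p of 0.05, as they called 0 of all 5989 tested probes (0%). At an unadjusted p under 0.05 there were 0 of 80 members again, against 4.71% of all tested probes, of which 3.29% were higher and 1.42% lower in DHT50. In 0 of the 80 members did the 2 groups stand apart without overlap, against 1.27% of all tested probes with every DHT50 array higher and 0.952% with every DHT50 array lower. Changes over 2-fold were seen in 3 of the 80 members upward and 0 downward, against 5.96% and 5.53% of all tested probes. The lowest adjusted p of a member was 0.685.

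Most members nevertheless lay slightly above control. The change was positive in 57 of 80 (71.2%), against 53.6% of all tested probes, and its median was 0.27 on the log2 scale, against 0.06. By class the change was positive in 12 of 18 pumps, 21 of 29 channels and 24 of 33 carriers, with medians of 0.14, 0.41 and 0.35. Changes of single members ran from -0.86 to 1.55, where the median standard error was 0.44.

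**Figure D1:**
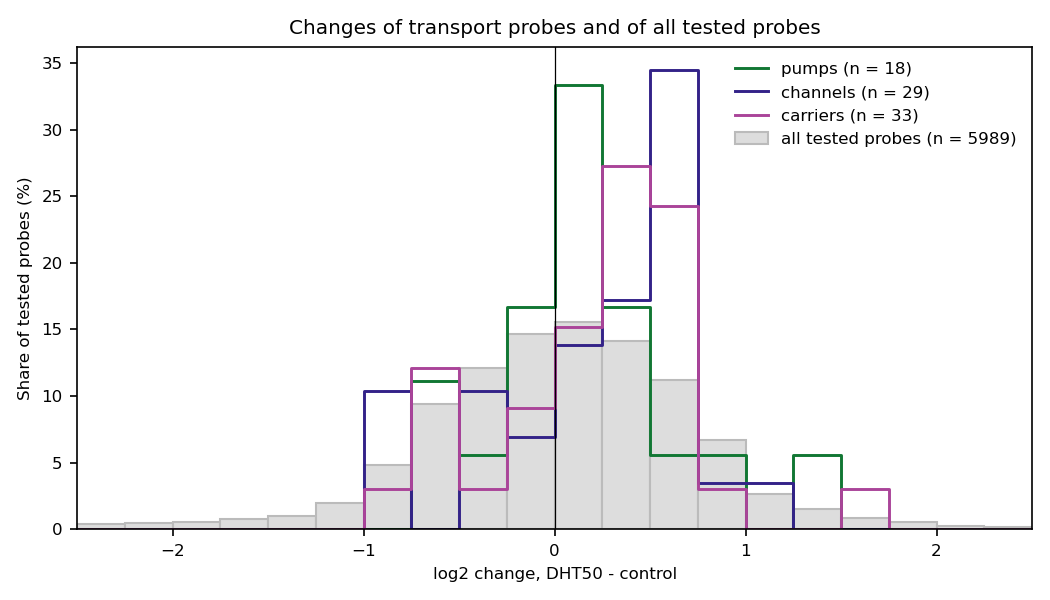
Share of tested probes (%) in bins of log2 change between DHT50 and control, with all 5989 tested probes as grey bars and the 18 pumps, 29 channels and 33 carriers as outlines. Most members of each class lie right of 0, and none lies beyond the range -0.86 to 1.55. The fullest bin of the channels is that from 0.5 to 0.75, with 10 probes.

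This lean toward higher values stood beside a fall of the members' levels with the brightness of the arrays. The 75th percentile of log2 signal, which is subtracted from every value and so defines a level of 0, ranged from 7.97 in DHT50 2 to 11.21 in control 1. The median deviation of the 80 members from their own means was 0.70 in DHT50 2, the dimmest array, 0.26 in DHT50 3 (brightness 9.13) and 0.17 in DHT50 4 (9.50). It was between -0.08 and 0.11 in controls 2, 3 and 4 (9.99 to 10.09), -0.32 in DHT50 1 (10.95) and -0.48 in control 1 (11.21). The treated array DHT50 1 thus stood beside control 1 and away from the other DHT50 arrays. This was not particular to the members, since the median deviation of all tested probes was -0.34 in control 1, -0.25 in DHT50 1 and 0.11 to 0.13 in the other DHT50 arrays. For members below with 3 of 4 DHT50 arrays beyond every control, the share of all tested probes with that pattern is not given. The pattern is therefore given as a description only. Whether it sets a member apart from the array as a whole was not tested. DHT50 2 was the highest of the 8 arrays in 36 of 80 members (45.0%, against 29.1% of all tested probes), and control 1 was the lowest in 26 (32.5%, against 31.9%). With brightness in the fit the change was positive in 33.8% of members and 35% of all tested probes, and the class medians were -0.07, -0.01 and -0.04 for pumps, channels and carriers. Without control 1 and DHT50 2 together they were -0.08, 0.04 and -0.02, and with normexp background correction 0.06, 0.15 and 0.09. The lean remained under other scalings, with 66.2% of members positive against 51.5% of all tested probes with quantile normalization. The shares were 66.2% and 50.2% with the deposited log2 values, 71.2% and 53.1% with median scaling, and 68.8% and 52.2% with normexp. DHT50 2, 3 and 4 were dimmer than every control. Brightness and group are thus partly confounded, and a fit with brightness can also take out a group difference. The part of brightness in the lean was not tested beyond these values.

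**Figure D2:**
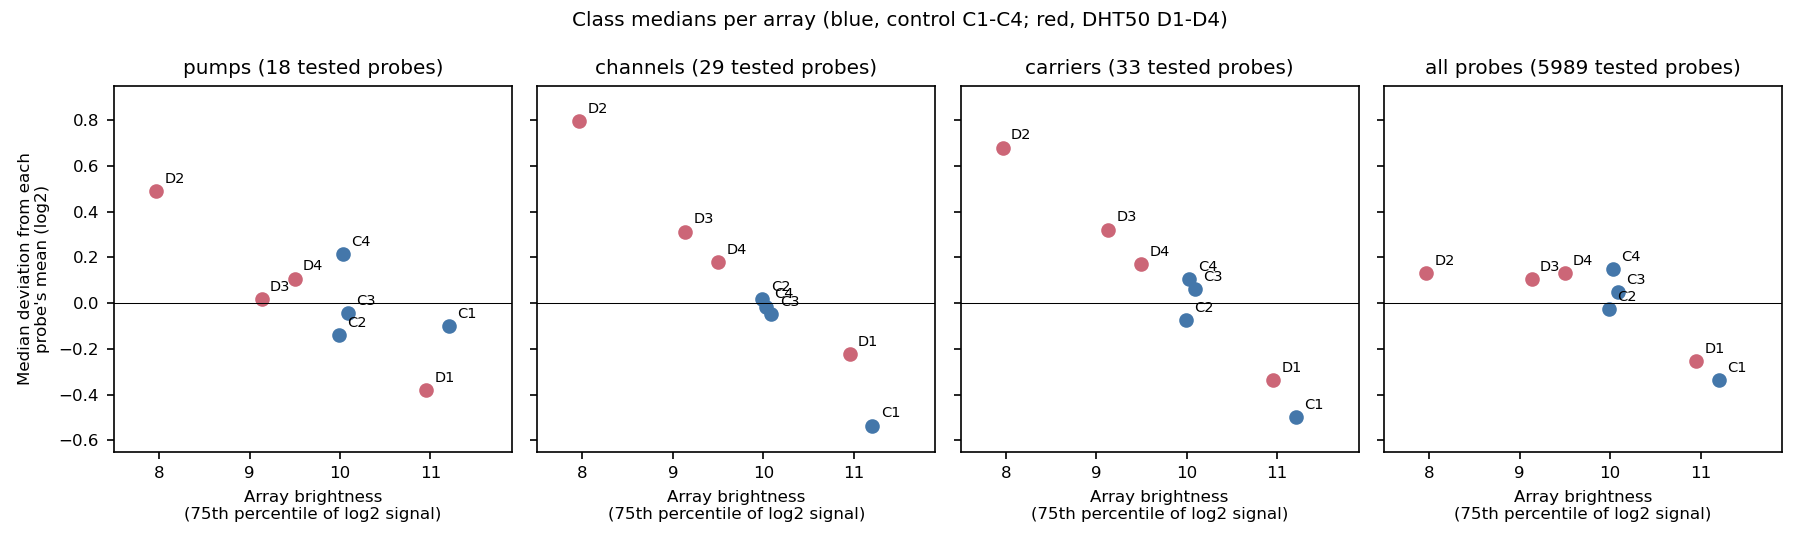
Median deviation of each class from its probes' own means (log2) against the brightness of each array, with controls in blue and DHT50 in red. Channels and carriers stand at 0.80 and 0.68 on the dimmest array, DHT50 2, and at -0.54 and -0.50 on the brightest, control 1.

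Of the 94 members, 14 did not reach the filter of 4 arrays well above background, and 6 of these were not well above background on any array. The 6 were SERCA1 (the calcium pump of fast muscle), a second probe of V-ATPase subunit C, one of subunit d, a voltage-dependent anion channel (VDAC) named after the fly porin, and the adaptor proteins KCTD1 and KCTD16. Among the other 8 was V-ATPase subunit B, part of the ATP-splitting head. It was well above background on 3 DHT50 arrays and 0 control arrays, with levels of -6.81, -5.58, -5.36 and -5.83 in controls and -6.37, -3.52, -4.26 and -4.92 in DHT50. DHT50 1 lay below 3 of the 4 controls, and the level in DHT50 2 was close to the lowest that counted as well above background on that dim array (-3.75), so no fold is given. Sodium/glucose cotransporter 2, the KST1 cotransporter, the proton myo-inositol cotransporter, equilibrative nucleoside transporter 1, calcium channel gamma-5, 1 of 2 NKCC2 probes and 1 of 2 SLC20A1 probes were well above background on 1 to 3 arrays. Sodium/glucose cotransporter 2 was at -6.29, -6.30, -7.0 and -6.54 in controls and -6.08, -6.07, -5.63 and -5.39 in DHT50. Its groups did not overlap, but only 1 array of each group was well above background, and it was not tested.

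The sodium/potassium ATPase was measured with 7 probes, all well above background on all 8 arrays. Its alpha chain is the catalytic subunit and its beta chain the glycoprotein that brings it to the membrane. Alpha-1 on probe 3 was at 4.26, 3.6, 3.41 and 3.65 in controls and 2.71, 4.49, 2.93 and 4.20 in DHT50. The DHT50 arrays fell to both sides of the controls, 2 below all of them and 1 above, and the log2 change was -0.15 ± 0.46 (± SE, n = 4 per group, limma adjusted p = 0.910). Probe 1 of alpha-1, at 2.91, 1.88, 2.02 and 1.98 in controls and 1.48, 2.94, 1.42 and 2.57 in DHT50, went the same way from array to array (Pearson r = 0.964 over the 8 arrays, which also share their scaling). Its change was -0.09 ± 0.44 (adjusted p = 0.939). Probe 2 did not follow them (r = -0.282 with probe 3). It was at -1.62, -1.81, -1.70 and -1.42 in controls and -1.17, -1.42, -1.67 and -1.75 in DHT50, and its change of 0.13 ± 0.29 (adjusted p = 0.867) had a 95% interval of -0.52 to 0.79, inside 2-fold. The sign of probes 1 and 3 turned without control 1 (0.14 and 0.03), without DHT50 1 (0.12 and 0.14) and without DHT50 3 (0.13 and 0.07). Without DHT50 2 they were at -0.37 and -0.45, and with 1 array left out probe 2 ran from 0.02 to 0.22.

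The beta-1 chain on probe 1 was at 5.61, 5.72, 5.24 and 5.75 in controls and 5.12, 6.75, 5.52 and 6.41 in DHT50. Again DHT50 1 was lowest of all and DHT50 2 and 4 were highest, so that the groups overlapped (0.37 ± 0.41, adjusted p = 0.739). Its change was 0.11 without DHT50 2, 0.22 without DHT50 4 and 0.65 without DHT50 1. A second beta-1 probe, on another assembled sequence, did not follow it (r = 0.0537). It was at 3.55, 3.10, 2.65 and 3.43 in controls and 3.20, 2.88, 2.52 and 3.18 in DHT50 (-0.24 ± 0.33, adjusted p = 0.788). Its change was -0.12 without control 1, -0.42 without control 3, -0.16 without control 4 and -0.098 without DHT50 3. Alpha-3, the isoform of neurons in mammals, was at -3.04, -1.94, -1.90 and -1.46 in controls and -3.44, 0.46, -1.38 and -0.77 in DHT50 on probe 1. Of these, 3 of 4 DHT50 arrays were above every control and DHT50 1 was below them all (0.80 ± 0.74, adjusted p = 0.705). The change was 0.48 without control 1, 0.22 without DHT50 2, 1.52 without DHT50 1 and -0.36 with brightness in the fit. Probe 2 of alpha-3 was at -0.52, -0.48, -0.71 and -0.62 in controls and -0.81, 0.20, -0.77 and -0.34 in DHT50, with 2 DHT50 arrays above and 2 below all controls (0.16 ± 0.33, adjusted p = 0.860). With 1 array left out it ran from -0.05 to 0.28.

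The V-ATPase is built of a head that splits ATP (subunits A to H) and a membrane ring that passes protons (a, c, d and e), and 12 probes covered 10 of its subunits, with 9 probes tested. Subunit C, a stalk subunit that holds head and ring together, had the largest change of any pump on probe 1. It was at -4.0, -2.06, -1.67 and -2.48 in controls and -3.42, -0.13, -0.73 and -0.94 in DHT50. Hence 3 of 4 DHT50 arrays were above every control, while DHT50 1 lay with control 1 (1.25 ± 0.75, adjusted p = 0.685). The change was 0.75 with normexp, 0.77 without control 1, 0.86 without DHT50 2, 1.95 without DHT50 1 and 0.11 with brightness in the fit.

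Subunits H and E, also of the head and its stalks, lay on the other side of 0. Subunit H was at 1.44, 1.55, 1.47 and 1.91 in controls and 1.83, -0.14, 0.72 and 1.36 in DHT50, with 3 of 4 DHT50 arrays below every control (-0.65 ± 0.44, adjusted p = 0.685). Subunit E was at -2.42, -2.70, -3.03 and -2.67 in controls and -1.89, -3.36, -3.83 and -4.09 in DHT50 (-0.59 ± 0.48, adjusted p = 0.685). DHT50 1 was again the exception in both. Without DHT50 2 the change of H was -0.29, that of E was -1.06 without DHT50 1 and -0.32 without DHT50 4, and with normexp the changes of H and E were -0.42 and -0.31.

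The remaining V-ATPase subunits lay closer to 0. Subunit G1 of the stalk was at -5.92, -4.97, -4.60 and -4.53 in controls and -5.61, -3.73, -4.06 and -4.47 in DHT50 (0.54 ± 0.49, adjusted p = 0.704), with a change of 0.11 under normexp. Leaving out control 1 gave 0.24, DHT50 1 gave 0.92 and DHT50 2 gave 0.29. The membrane subunit M9.2 was at -2.41, -2.44, -2.01 and -2.12 in controls and -1.67, -4.03, -2.42 and -2.68 in DHT50 (-0.46 ± 0.48, adjusted p = 0.725), and at -0.02 without DHT50 2 and -0.80 without DHT50 1. Both were well above background on 3 of the 4 DHT50 arrays, and in both the groups overlapped. The proton-carrying proteolipid c (0.02 ± 0.30), subunit D of the rotor (0.18 ± 0.29) and subunit d (0.03 ± 0.34) had intervals inside 2-fold, and membrane subunit a2 was at 0.25 ± 0.42. The median of the 9 tested V-ATPase probes was 0.03, so the subunits of this enzyme did not share a direction, with 6 above 0 and 3 below. SERCA2, the calcium pump of the endoplasmic reticulum, was at 0.35 ± 0.53 and 0.24 ± 0.53 on its 2 probes, which followed each other over the arrays (r = 0.977).

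**Figure D3:**
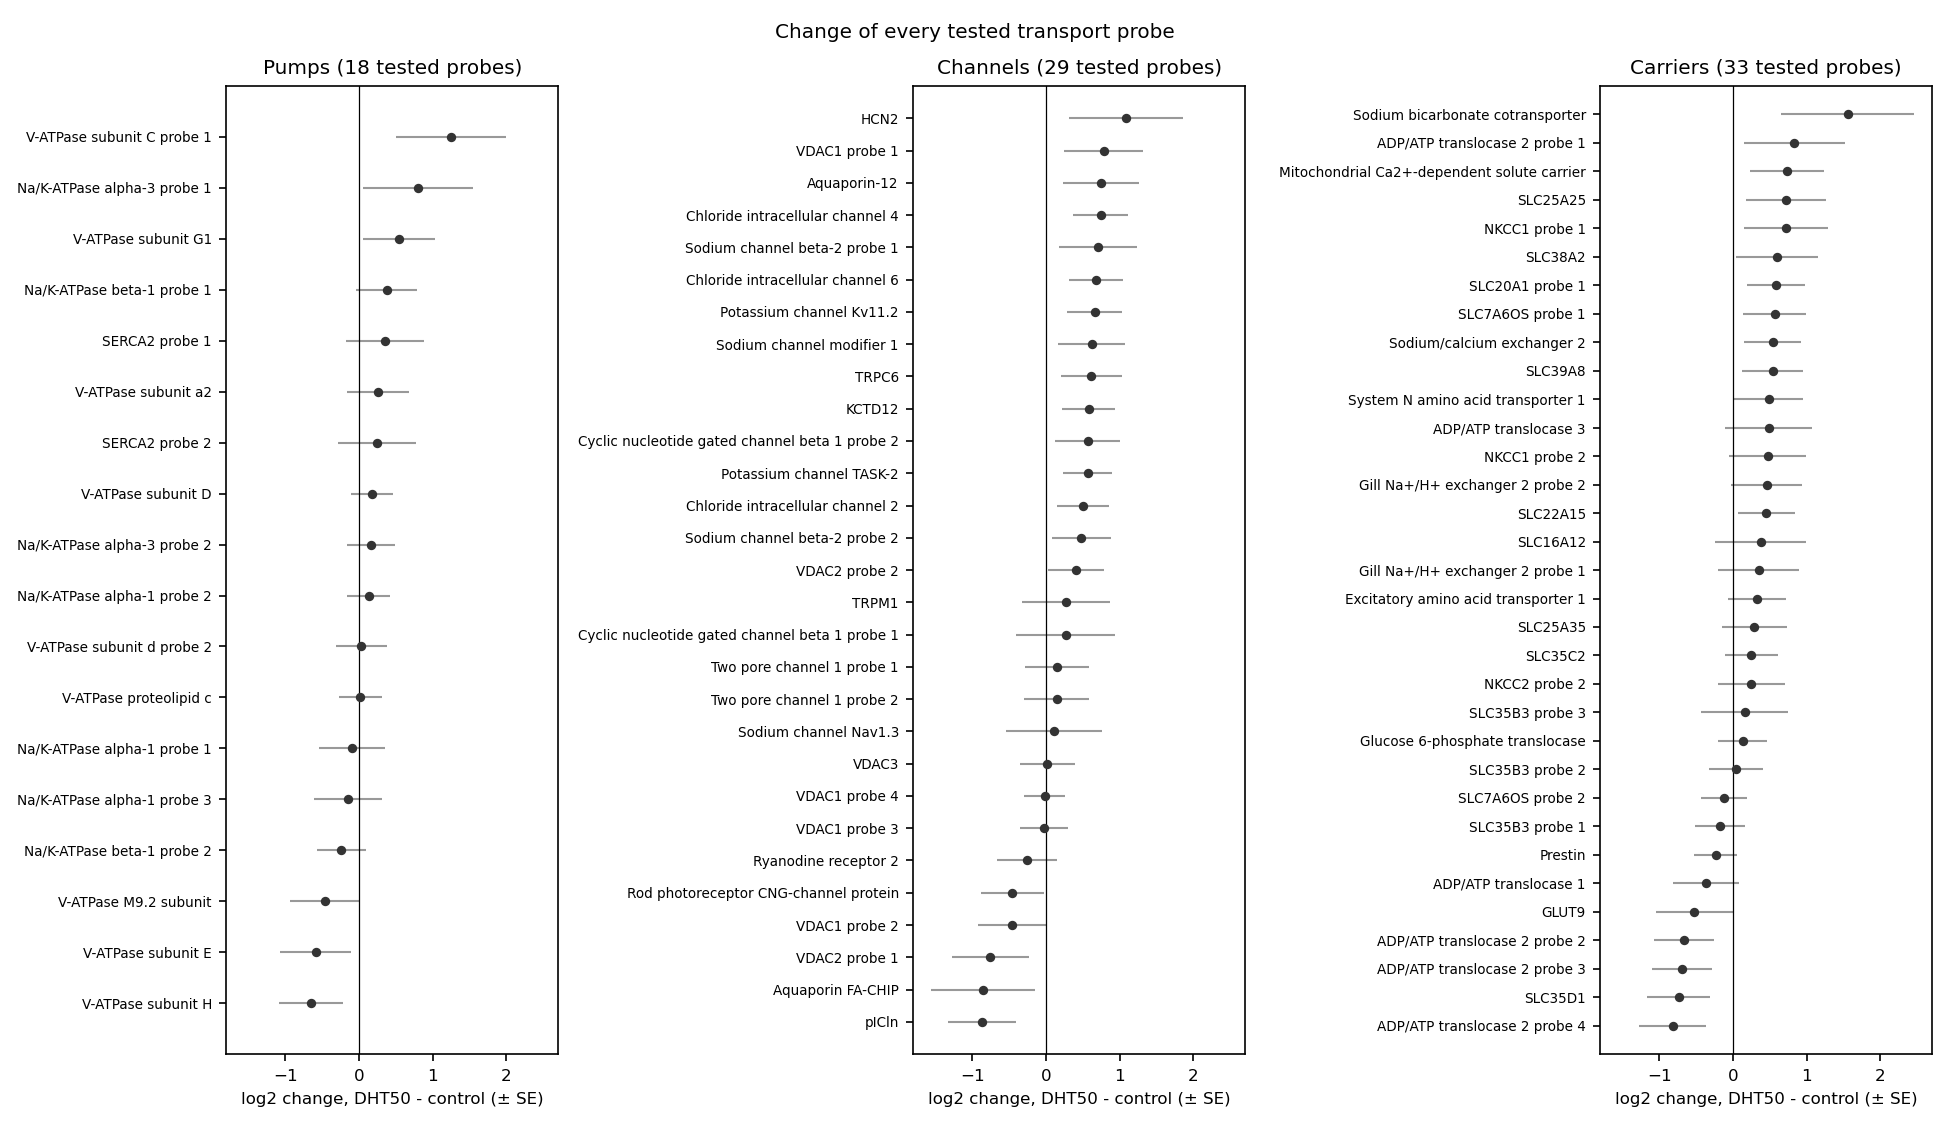
Log2 change between DHT50 and control (point) with its standard error (line) for each of the 80 tested members, sorted within pumps, channels and carriers. The points run from -0.86 (pICln) to 1.55 (sodium bicarbonate cotransporter).

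Chloride intracellular channels, small proteins that exist both dissolved and in membranes, lay above 0 on all 3 probes. Channel 4 had the smallest unadjusted p of the members and was at -1.84, -1.25, -2.12 and -1.92 in controls and -1.27, -0.28, -1.10 and -1.51 in DHT50. The DHT50 arrays were above 3 of the 4 controls, and control 2 lay among them (0.74 ± 0.37, 95% interval -0.09 to 1.57, adjusted p = 0.685). Channel 6 was at 1.81, 2.60, 1.48 and 1.76 in controls and 2.59, 3.20, 2.39 and 2.18 in DHT50, with control 2 again the highest control (0.68 ± 0.37, adjusted p = 0.685). Channel 2 had a change of 0.50 ± 0.35. With brightness in the fit the 3 changes were 0.47, 0.51 and 0.41 for channels 4, 6 and 2. With normexp they were 0.44, 0.72 and 0.52. Without DHT50 2 that of channel 4 was 0.49, and within slide row 2 alone, which holds 1 DHT50 array, the 3 were 0.25, 0.24 and 0.09.

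Potassium channels were measured on 2 tested probes, and both lay above 0. TASK-2, a background channel that is open at rest, was at -4.77, -4.52, -4.64 and -4.42 in controls and -3.95, -4.51, -3.36 and -4.25 in DHT50 (0.56 ± 0.33, adjusted p = 0.685). Kv11.2, a voltage-gated channel of the ether-a-go-go family, was at -5.71, -5.21, -4.82 and -4.46 in controls and -4.94, -4.09, -4.25 and -4.28 in DHT50 (0.66 ± 0.37, adjusted p = 0.685). In both, 3 of 4 DHT50 arrays were above every control, but each probe was well above background on only 3 DHT50 arrays, and with normexp the changes were 0.25 and 0.20. TASK-2 was at 0.35 without DHT50 3, and Kv11.2 at 0.44 without control 1.

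Of the channels known from excitable cells, HCN2 had the largest change and the largest error. HCN2, a pacemaker channel of heart and brain, was at -2.47, -3.56, -1.73 and -1.82 in controls and -2.36, 0.24, -0.07 and -3.05 in DHT50 (1.08 ± 0.77, adjusted p = 0.685). Its 2 high values were DHT50 2 and 3, and the change was 0.57 without DHT50 2 and -0.68 within slide row 2. Sodium channel beta-2, an auxiliary subunit, was at 0.71 ± 0.53 and 0.48 ± 0.40 on 2 probes of 1 assembled sequence. TRPC6 was at 0.62 ± 0.42 and the lysosomal cation channel TPC1 at 0.15 ± 0.43 and 0.14 ± 0.44. Ryanodine receptor 2, which releases calcium from the reticulum of heart muscle, was at -0.26 ± 0.41. A rod photoreceptor channel gated by cyclic nucleotides was at -4.03, -4.32, -3.61 and -3.75 in controls and -4.21, -5.54, -3.89 and -3.90 in DHT50. Only DHT50 2 lay outside the controls (-0.46 ± 0.43, adjusted p = 0.705), and the change was -0.07 without it. Cyclic nucleotide gated channel beta 1, of the same channel type, lay above 0 on its 2 probes, at 0.27 ± 0.67 and 0.57 ± 0.44.

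The 2 aquaporins, which conduct water, lay apart. Aquaporin FA-CHIP, named after a frog water channel, was at 0.57, -2.70, -0.32 and -0.61 in controls and -2.35, -2.48, -0.78 and -0.90 in DHT50. Control 2 was the lowest of all 8 arrays, so the groups overlapped fully (-0.86 ± 0.71, adjusted p = 0.685). The change was -1.51 without control 2, -0.42 without control 1, and 0.31 within slide row 2. Aquaporin-12 was at -1.68, -1.58, -2.51 and -3.0 in controls and -2.58, -0.67, -1.78 and -0.76 in DHT50 (0.75 ± 0.52, adjusted p = 0.685), and its change was 0.23 with normexp, 0.48 without control 4, 0.49 without DHT50 2, and 0.01 and 1.6 within slide rows 1 and 2.

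**Figure D4:**
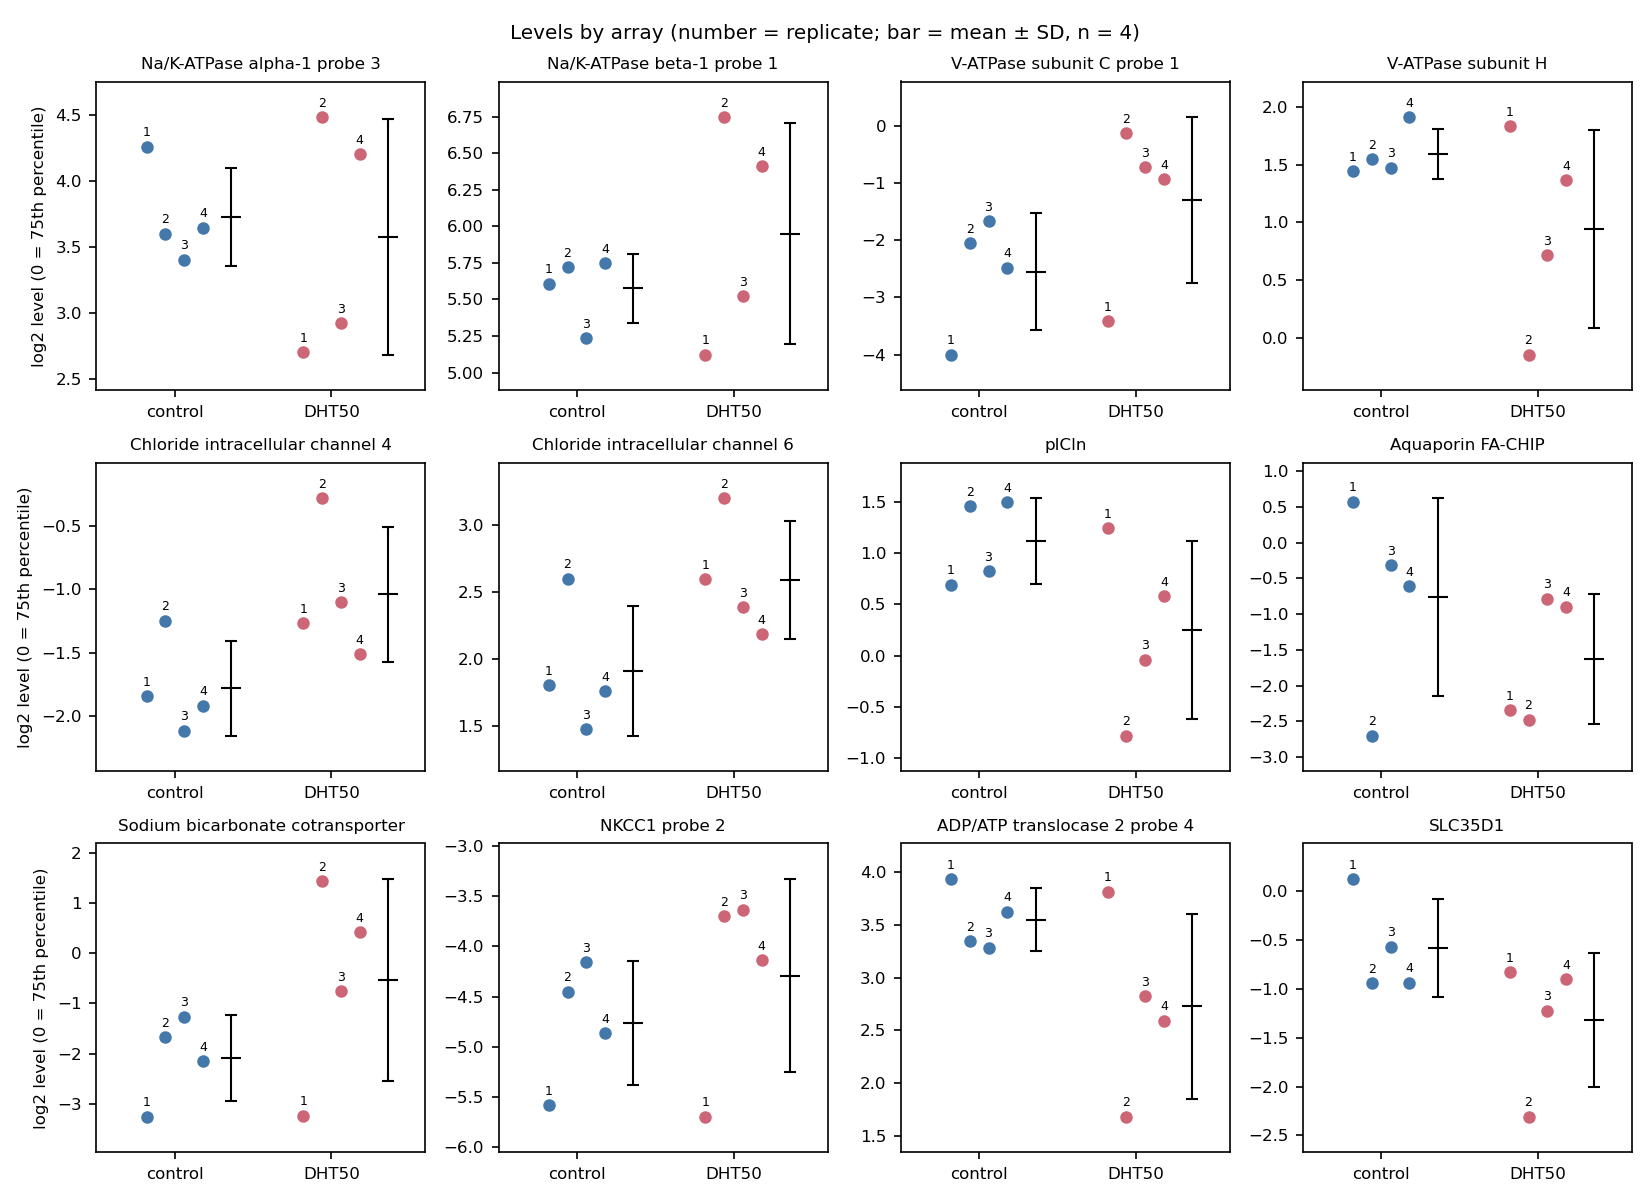
Log2 level of 12 members on each array, numbered by replicate, with the mean ± SD of 4 arrays beside each group; a level of 0 is the 75th percentile of the array. DHT50 1 lies near control 1 for the sodium bicarbonate cotransporter, NKCC1 and ADP/ATP translocase 2, but not for alpha-1 or Aquaporin FA-CHIP. No panel shows groups without overlap.

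Mitochondrial members, the outer membrane pores (VDAC) and the inner membrane carriers, split between directions within 1 product name. For ADP/ATP translocase 2, which exchanges ADP for ATP, probe 4 was at 3.94, 3.35, 3.28 and 3.63 in controls and 3.81, 1.68, 2.82 and 2.59 in DHT50. Probes 2 and 3 followed it closely (r = 0.989 and 0.997 over the 8 arrays), and the 3 changes were -0.82 ± 0.45, -0.66 ± 0.41 and -0.69 ± 0.41 for probes 4, 2 and 3, each with 3 of 4 DHT50 arrays below every control (adjusted p = 0.685 each). Probe 1 of the same name was at -1.66, -0.44, -0.54 and -0.70 in controls and -2.04, 1.49, 0.51 and 0.02 in DHT50. It ran against the others (r = -0.938 with probe 4), with a change of 0.83 ± 0.68 and 3 of 4 DHT50 arrays above every control. The 4 probes lie on 4 assembled sequences, and whether these are 1 gene was not tested. With brightness in the fit the changes of probes 4 and 1 were -0.21 and -0.25, and without DHT50 2 they were -0.47 and 0.33.

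VDAC1 showed the same split. Probe 1 was at 0.88, 1.65, 1.5 and 1.37 in controls and 0.51, 3.20, 2.43 and 2.39 in DHT50, with 3 of 4 DHT50 arrays above every control (0.78 ± 0.54, adjusted p = 0.685). Probe 2 was at -1.15, -0.94, -1.08 and -1.04 in controls and -0.08, -1.67, -2.24 and -2.07 in DHT50, with 3 of 4 below every control (-0.46 ± 0.47, adjusted p = 0.721, r = -0.815 with probe 1). Probes 3 and 4 were at -0.03 ± 0.33 and -0.02 ± 0.28, and VDAC3 at 0.01 ± 0.37, with intervals inside 2-fold. VDAC2 probe 1 was at 0.47, -0.20, -0.25 and 0.09 in controls and 0.43, -2.22, -0.44 and -0.68 in DHT50, with 3 of 4 DHT50 arrays below every control (-0.76 ± 0.53, adjusted p = 0.685). It was at -0.26 without DHT50 2 and -1.14 without DHT50 1. VDAC2 probe 2 was at 0.41 ± 0.38. ADP/ATP translocase 1, the heart and muscle form in mammals, was at -4.12, -4.94, -4.90 and -5.13 in controls and -5.04, -4.84, -6.29 and -4.41 in DHT50, and well above background on 2 arrays of each group (-0.37 ± 0.45, adjusted p = 0.762). With 1 array left out its change ran from -0.61 to 0.01. Over the 16 tested probes of ADP/ATP translocases, other SLC25 carriers and VDACs, 8 lay above 0 and 8 below. The median change of the other 64 was 0.30, and 49 of them were above 0, against 53.6% of all tested probes. This split was not planned, unlike that into pumps, channels and carriers. ADP/ATP translocase 2 and VDAC1 gave 4 of the 16 probes each. With brightness in the fit 33.8% of all 80 members were above 0, against 35% of all tested probes.

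Among carriers of the plasma membrane, the sodium bicarbonate cotransporter, which moves base across epithelia and sets cell pH, had the largest change of all members. Its probe comes from a mummichog record. It was at -3.26, -1.67, -1.26 and -2.15 in controls and -3.24, 1.44, -0.76 and 0.42 in DHT50. Here 3 of 4 DHT50 arrays were above every control, and DHT50 1 stood with control 1, so the change of 1.55 ± 0.90 had a 95% interval of -0.47 to 3.58 (adjusted p = 0.685). It was 2.41 within slide row 1 and 2.12 within row 2, 2.46 without DHT50 1, 0.90 without DHT50 2, and 0.17 with brightness in the fit. The carbonic anhydrases that supply bicarbonate, which are no members, were at 0.58 ± 0.68 and 0.44 ± 0.41 for carbonic anhydrase 2 and at 0.05 ± 0.46 for a further Carbonic anhydrase.

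The other ion carriers from mummichog records were NKCC1, NKCC2 and Gill Na+/H+ exchanger 2. NKCC1, which brings sodium, potassium and chloride into the cell, was at -5.58, -4.45, -4.15 and -4.86 in controls and -5.70, -3.70, -3.63 and -4.14 in DHT50 on probe 2. Once more 3 of 4 DHT50 arrays were above every control and DHT50 1 was below them (0.47 ± 0.52, adjusted p = 0.741). Probe 1, on the same record, followed it (r = 0.942) with a change of 0.72 ± 0.58. With normexp the 2 changes were 0.09 and 0.04 for probes 1 and 2, and with brightness in the fit -0.04 and -0.23. NKCC2, the kidney form in mammals, was at 0.25 ± 0.45 on its 1 tested probe, and Gill Na+/H+ exchanger 2 at 0.35 ± 0.55 and 0.45 ± 0.48.

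The phosphate carrier SLC20A1 was at -3.36, -2.93, -3.57 and -2.71 in controls and -3.27, -2.10, -2.01 and -2.86 in DHT50 on probe 1 (0.58 ± 0.39, adjusted p = 0.685). Sodium/calcium exchanger 2, which expels calcium, was at -4.22, -4.63, -4.50 and -3.58 in controls and -4.26, -3.28, -4.03 and -3.21 in DHT50 (0.54 ± 0.38, adjusted p = 0.685). In each, 2 of 4 DHT50 arrays were above every control, and with normexp the changes were 0.21 and 0.16. The zinc carrier SLC39A8 was at 0.54 ± 0.42. The 3 amino acid carriers SLC38A2 (0.60 ± 0.56), System N amino acid transporter 1 (0.49 ± 0.47) and Excitatory amino acid transporter 1 (0.32 ± 0.40) were all above 0. So was the mitochondrial ATP-magnesium carrier SLC25A25 (0.72 ± 0.54). The Mitochondrial Ca2+-dependent solute carrier was at -3.12, -3.0, -2.25 and -2.36 in controls and -3.22, -0.83, -1.60 and -2.15 in DHT50. There 3 of 4 DHT50 arrays were above every control and DHT50 1 was below them (0.73 ± 0.51, adjusted p = 0.685), and the change was 0.36 without DHT50 2 and 1.16 without DHT50 1. Of the 10 tested ion carrier probes 9 were above 0, against 53.6% of all tested probes, with a median of 0.50. NKCC1 and Gill Na+/H+ exchanger 2 gave 2 of these probes each. With brightness in the fit the 10 fell on both sides of 0, between -0.34 and 0.32. Prestin, an anion carrier family member known as the motor of hair cells, was at -0.24 ± 0.29.

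SLC35D1, which brings UDP-glucuronic acid and UDP-N-acetylgalactosamine into the endoplasmic reticulum, lay below 0. It was at 0.12, -0.94, -0.57 and -0.94 in controls and -0.83, -2.31, -1.22 and -0.90 in DHT50, with 2 of 4 DHT50 arrays below every control (-0.74 ± 0.43, adjusted p = 0.685). The change was -0.40 without DHT50 2, and -1.58 and -0.09 within slide rows 1 and 2. Its relatives SLC35C2 (0.25 ± 0.36) and SLC35B3 (-0.18 to 0.16 on 3 probes), the carrier of activated sulfate in the Golgi, lay nearer to 0. Among sugar carriers, the urate and glucose carrier GLUT9 was at -1.52, -2.09, -3.17 and -2.51 in controls and -2.86, -3.80, -1.67 and -3.05 in DHT50, where only DHT50 2 lay outside the range of the controls (-0.52 ± 0.52, adjusted p = 0.716). With 1 array left out it ran from -0.92 (DHT50 3) and -0.81 (control 3) to -0.26 (control 1) and -0.21 (DHT50 2). Glucose 6-phosphate translocase, which feeds glucose release, was at 0.13 ± 0.34, the latter with an interval of -0.63 to 0.88.

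Some names that match the rule are not transport proteins. pICln, named as a nucleotide-sensitive chloride channel but a chaperone of spliceosome assembly, was at 0.69, 1.45, 0.82 and 1.49 in controls and 1.24, -0.78, -0.04 and 0.58 in DHT50. With 3 of 4 DHT50 arrays below every control it had the lowest change of all members (-0.86 ± 0.46, adjusted p = 0.685), at -0.52 without DHT50 2. Sodium channel modifier 1, a splicing factor, was at 0.62 ± 0.45, KCTD12, a partner of GABA-B receptors, at 0.58 ± 0.36, and SLC7A6OS, encoded opposite a carrier gene, at 0.56 ± 0.42 and -0.12 ± 0.31. Without these proteins the medians of channels and carriers were 0.34 and 0.35.

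The number of members at an unadjusted p under 0.05 rose with DHT50 1 left out. It stayed at 0 to 2 with any other single array left out. Without DHT50 1, 24 of 80 members (30.0%) had an unadjusted p under 0.05, 16 higher and 8 lower, against 23.2% of all tested probes. They were 4 pumps, 9 channels and 11 carriers, among them the sodium bicarbonate cotransporter (2.46 ± 0.62), VDAC1 probe 1 (1.32 ± 0.34), V-ATPase subunit C (1.95 ± 0.55) and V-ATPase subunit E (-1.06 ± 0.31). None passed adjustment by limma (lowest adjusted p = 0.174). With array weights, which give less weight to arrays that depart from their group, the count was 17 of 80 (21.2%, against 21.4% of all tested probes). No setting called a member. In slide row 1 alone 106 probes were called, but that row sets DHT50 1, 2 and 3 against control 1 only. Row 2 sets DHT50 4 against controls 2, 3 and 4, so that each row has 1 array on one side, which is assumed to vary like the others, and row and group are largely confounded.

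The precision allows a plain statement on few members. All 80 intervals of 95% included 0, and 14 stayed inside 2-fold in both directions. The spread in DHT50 (median SD 0.77 over members) was above that in controls (0.47), as over all tested probes (0.71 and 0.50).

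Other ion transport products, matched by name patterns (43 tested of 51), were higher in 25 and lower in 18, with a median of 0.17. Their patterns also took up nucleoporins, cyclophilins and ankyrin repeat proteins. None passed. In 3 of the 43 every DHT50 array lay below every control, and in 0 above, against 0.952% and 1.27% of all tested probes. An unadjusted p under 0.05 was found in 2 of 43, both lower, against 4.71% of all tested probes, of which 1.42% were lower. One was Copper-transporting ATPase 1, the Menkes copper pump, at -1.30 ± 0.50 (adjusted p = 0.685). The other was ABCG8 (ATP-binding cassette, sub-family G, member 8), a sterol exporter subunit, at -1.73 ± 0.32 and well above background on 1 of the 4 DHT50 arrays. Regulators of the members above were the sodium/potassium ATPase partners Phospholemman (FXYD1, 0.19 ± 0.31) and FXYD6 (FXYD domain-containing ion transport regulator 6, -0.52 ± 0.41) and the kinase WNK1 (Serine/threonine-protein kinase WNK1, 0.96 ± 0.67), which controls chloride carriers.

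Markers of other cells were read beside these values. The germ cell marker vasa (DEAD-box protein 4) was at -0.96 ± 0.54 (adjusted p = 0.685). Sperm-associated antigen 8 (0.54 ± 0.50) and spermatid perinuclear RNA-binding protein (0.41 ± 0.52) lay above 0. Below 0 were 2 L-xylulose reductase probes, also named as sperm proteins, at -1.32 ± 0.52 and -0.92 ± 0.40. In the whole list matched by germ cell name patterns, 7 of 20 tested probes were higher and 13 lower, with a median change of -0.13. Of the 20, 3 had an unadjusted limma p under 0.05, all lower, against 4.71% of all tested probes, of which 1.42% were lower. These 3 were the 2 L-xylulose reductase probes and Multifunctional protein ADE2, an enzyme of purine metabolism taken up by the name patterns. The count is therefore no count of germ cell markers alone. Of the 8 Sertoli and Leydig cell probes, all tested, 5 were higher and 3 lower, with a median change of 0.13. The receptor of follicle stimulating hormone had a change of -1.02 ± 0.77 and the inhibin alpha subunit one of 0.89 ± 0.42 (adjusted p = 0.685 each). The activin/inhibin beta A subunit was at -0.97 ± 0.80 and 0.04 ± 0.68 on 2 probes. The median deviation of the 8 probes was -1.13 in DHT50 1, -0.45 in control 1, -0.16 in control 2 and between 0.09 and 0.61 elsewhere. Liver and plasma markers (54 tested of 65) stood at a median deviation of 3.79 in control 1 and between -1.52 and 0.44 elsewhere. Muscle markers (67 of 85) ran from -0.87 in control 1 and -0.62 in DHT50 1 to 0.67 in DHT50 2. Kidney and epithelium markers (32 of 39) ran from -1.13 and -0.90 in the same 2 arrays to 0.92 in DHT50 2, and red blood cell markers (18 of 24) from -0.84 and -0.83 to 0.83. In those 3 lists control 1 and DHT50 1 were the lowest arrays and DHT50 2 the highest, as for the 80 members. The list matched by germ cell name patterns (20 of 27) stayed between -0.20 and 0.39, but it also took up enzymes of purine and histidine metabolism and other RNA helicases, so this is no range of germ cell markers alone. The part of these cells in the transport values was not tested.

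**Figure D5:**
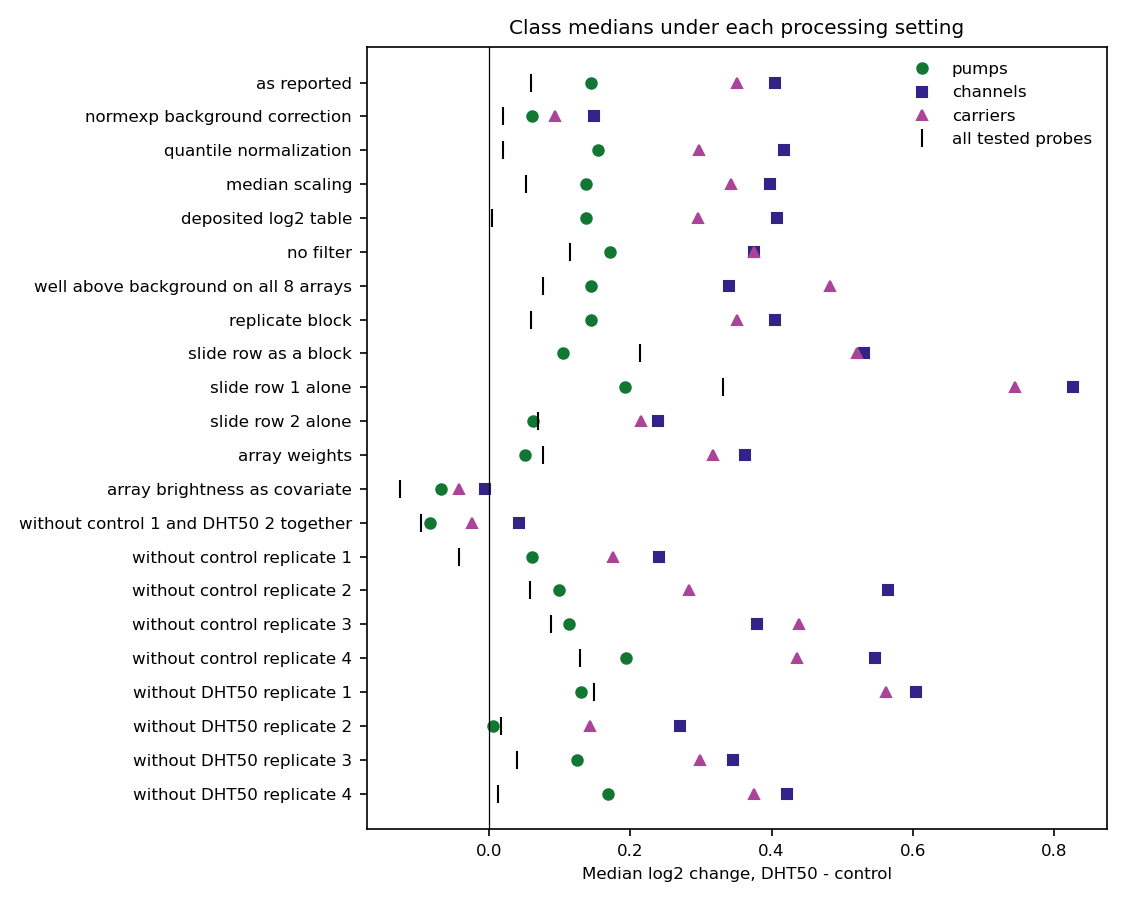
Median log2 change of pumps, channels, carriers and all tested probes (vertical marks) under each processing setting. Channels and carriers lie above the pumps under every setting shown, and the class medians lie between -0.08 and 0.04 with brightness as a covariate or without control 1 and DHT50 2.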

How the data were processed

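Testis RNA of 4 control and 4 DHT50 males was measured on 1-colour arrays. Spot intensity was deposited as Agilent Feature Extraction 10.7.1.1 wrote it; its processed signal is background-subtracted and detrended within the array, per the file headers. A deposited table of log2 values, with equal sorted values on all arrays, served as an alternative, and no source used here states how it was made. Deposited outlier flags, a set of other values, removed 28 of 114512 readings; 0 spots were saturated.

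Each log2 signal was set relative to the 75th percentile of its array, control spots left aside, and the 2 spots of a probe were averaged. Probes with both spots well above background on at least 4 arrays (5989 of 7157) were tested with limma 3.58.1 in R 4.3.3, using lmFit and two-sided eBayes tests, and p was adjusted by Benjamini-Hochberg across these probes. The code was tested on simulated data. Precision is limited by having 8 arrays. Each p-value sets the group difference against the spread between arrays within the groups. The labels do not say whether tanks were shared, so it is not known whether that spread includes differences between tanks.

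Members and lists were chosen with earlier results of these data known. In each class and direction the 4 products of smallest unadjusted p were described in full, with every sodium/potassium ATPase probe. Array values of VDAC1, NKCC1, HCN2, Aquaporin-12, ADP/ATP translocase 2 probe 1 and V-ATPase subunit B lie outside this rule and were chosen after they were seen. Alternatives were normexp (offset 50) on median spot and background signals, quantile and median scaling, the deposited table, other filters, blocks for replicate number and slide row, each row alone, array weights, brightness as a covariate, and arrays left out. No coordinates or sequences are given.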

Additional observations from a re-analysis of the deposited data

Results flagged for a closer look

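In control 1 Na/K-ATPase alpha-1 probe 1 stood at 2.91, apart from the other controls at 1.88 to 2.02. The median deviation of the channel members was -0.536 in control 1, against -0.047 to 0.0162 in the other controls. In both, the gap to the nearest array exceeded the critical share of the group's range by Dixon's test for 4 arrays. There were 2 such values among 62 groups of 4 checked, where chance gives about 1 in 20.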

How the results depend on the processing

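No alternative gave a called member; slide row 1 alone called 106 probes and the others 0. Members at an unadjusted p under 0.05 numbered 5 with the replicate block, all higher (6.25%, against 9.97% of all tested probes), 1 with the slide row as a block (against 6.56%), 1 in row 1 (7.11%), 6 in row 2 (5.31%), 17 with array weights (21.4%), and 0 to 24 with 1 array left out, the 24 without DHT50 1 (23.2%). Deviations of same-numbered arrays correlated at 0.20, 0.16, 0.38 and -0.11, and those of other pairs at -0.32 to 0.27. These values do not settle whether the numbers pair the arrays. The labels name no shared animal or batch, so the main fit had no block for replicate number. The median change of channels and carriers was 0.83 and 0.74 in row 1, -0.0065 and -0.043 with brightness as a covariate, and 0.042 and -0.024 without control 1 and DHT50 2. With 1 array left out, medians ran from 0.0048 to 0.19 for pumps, 0.24 to 0.60 for channels and 0.14 to 0.56 for carriers. Of 581 values of the 28 named probes under alternatives, 25 changed sign, none of them called. In row 2 these were beta-1 probe 2 (0.12), Aquaporin FA-CHIP (0.31), ADP/ATP translocase 1 (0.59) and alpha-1 probes 1, 2 and 3 (0.61, -0.11 and 0.65). With array weights they were Aquaporin FA-CHIP (0.23) and GLUT9 (0.097). With brightness they were subunit G1 (-0.13), alpha-3 probes 1 and 2 (-0.36 and -0.068), beta-1 probe 1 (-0.0086) and M9.2 (0.091). Without control 1 and DHT50 2 they were G1 (-0.0099), alpha-3 probes 1 and 2 (-0.10 and -0.033) and GLUT9 (0.063). With 1 array left out they were alpha-1 probe 1 (-0.37 to 0.14), alpha-1 probe 3 (-0.45 to 0.14), alpha-3 probe 2 (-0.055 to 0.28) and ADP/ATP translocase 1 (-0.61 to 0.014). Why values moved was not tested. The dim array DHT50 2 limited detection, with 60 members well above background against 78 to 82 elsewhere.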
